A study of Homo sapiens with 3 samples.

Results

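Binding of PRCC-TFE3, the fusion of PRCC with the transcription factor TFE3 found in some renal cell carcinomas, was examined at 6 genes that regulate mitochondrial biogenesis. These were *PPARGC1A*, *PPARGC1B*, *NRF1*, *TFAM*, *ESRRA* and *ESRRG*. Their regions were those chromatin immunoprecipitation sequencing (ChIP-seq) peaks that lay inside a gene or within 10 kb of it, in hg19 coordinates. Overlapping peaks of the ChIP replicates (1 bp or more) were merged, which gave 81 regions at the 6 genes out of 117702 in all. The cells were HK-2, a human cell line derived from the proximal tubule of the kidney, and carried HA-tagged PRCC-TFE3 under the Tet-On 3G doxycycline-inducible system. All samples, the input DNA included, came from cells treated with 0.2 µg/mL doxycycline for 24 h. The data comprised 2 HA-PRCC-TFE3 ChIP replicates and 1 input DNA library, so the ChIP libraries differ from the input by the precipitation and not by the fusion. The abundance of the fusion was set by the inducible construct, and the sources used here do not say whether the cells were a single clone. Neither uninduced cells nor expression of the 6 genes was analysed here.

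PGC-1α and PGC-1β, encoded by *PPARGC1A* and *PPARGC1B*, are coactivators that carry no DNA-binding domain of their own and act through transcription factors. Among these factors are nuclear respiratory factor 1, encoded by *NRF1*, and the estrogen-related receptors ERRα and ERRγ, encoded by *ESRRA* and *ESRRG*, which turn on nuclear genes for respiratory chain proteins. TFAM, in turn, is carried into mitochondria, where it packages mitochondrial DNA and starts its transcription. TFE3 and its relatives bind E-box-like sequences in DNA and are known for the control of lysosomal and metabolic genes. Proximal tubule cells depend on mitochondrial respiration for solute transport.

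PRCC-TFE3 peaks were present at the starts of 5 of the 6 genes. *PPARGC1A*, *PPARGC1B*, *NRF1*, *TFAM* and *ESRRA* each had a narrowPeak peak within 1 kb of the start in both replicates. *ESRRG* had none in either replicate. With a stricter cutoff of −log10 p of at least 10, 4 genes were left and *PPARGC1B* was not among them. For comparison, 4.82% of all 2 kb tiles of the genome held a peak of both replicates, 7.09% a peak of replicate 1 and 5.36% a peak of replicate 2. These tiles are not promoters, and the share among all promoters was not analysed here. The *TFAM* peak was the strongest of the 5 by tags, and the *PPARGC1B* peak was the weakest. Input DNA had 0 peaks at the 6 genes, out of 286 peaks in its list. With so few peaks over the whole genome, a count of 0 in windows of 1148 kb says little about these genes.

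**Figure D1:**
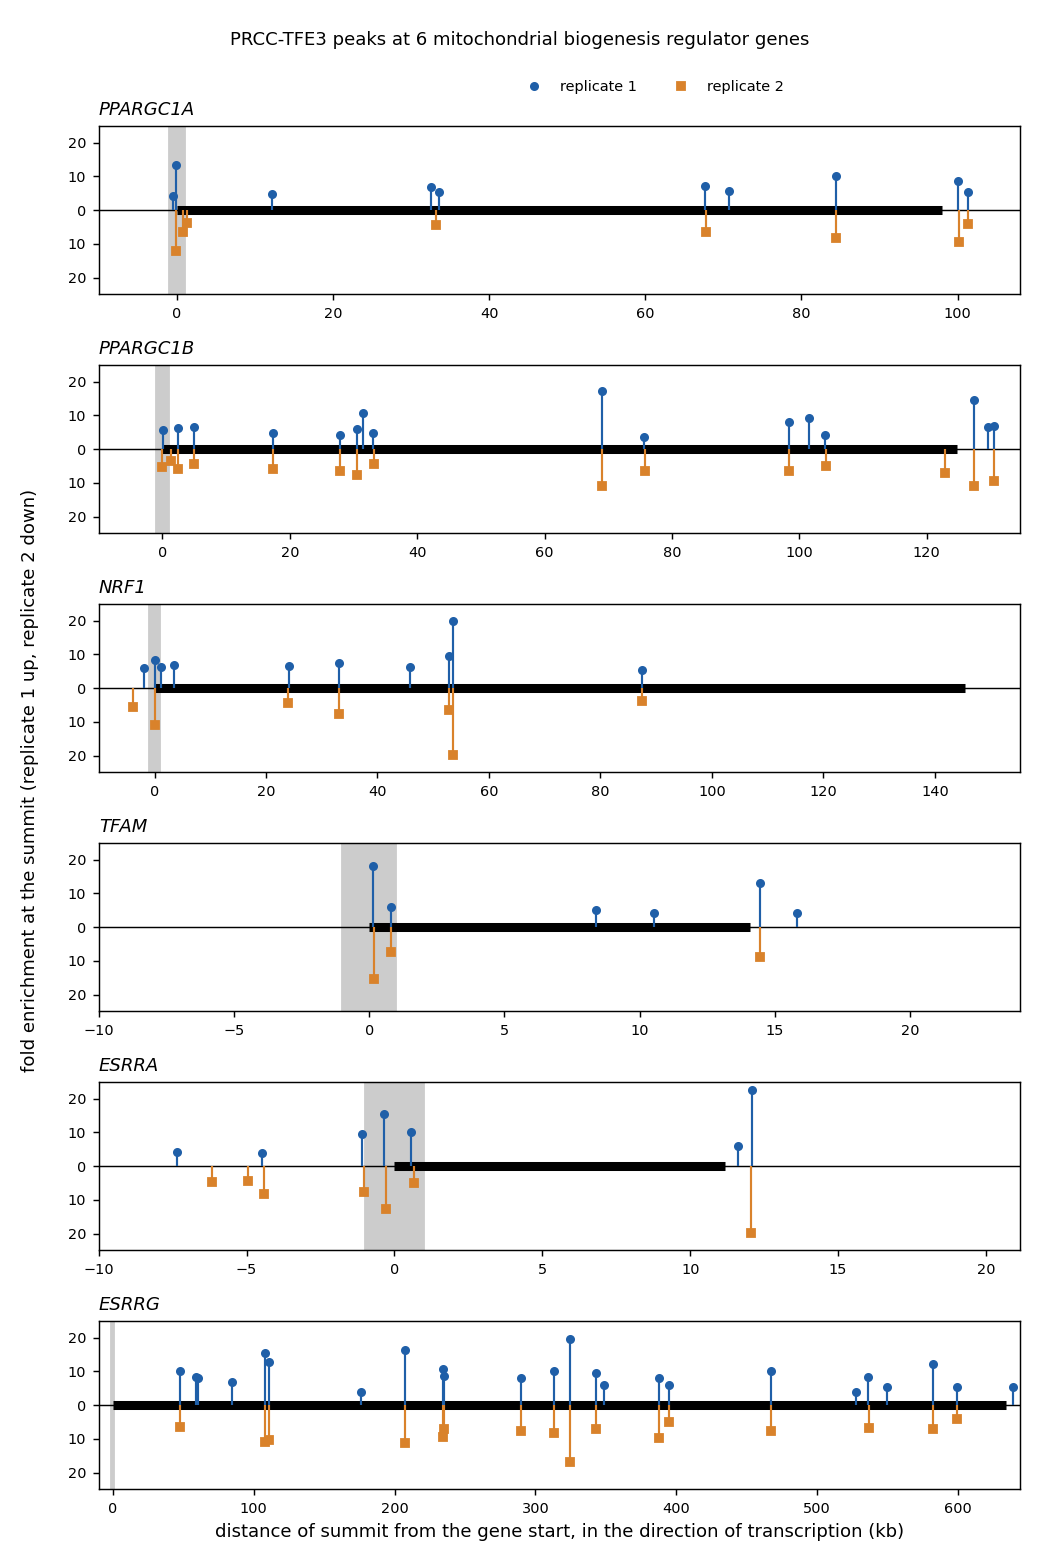
Position and strength of PRCC-TFE3 regions along each of the 6 genes. The horizontal axis is the distance of the summit from the gene start in kb, in the direction of transcription, and the vertical axis is the fold enrichment at the strongest summit of each region, with replicate 1 (circles) upward and replicate 2 (squares) downward. The black bar is the gene and the gray band is 1 kb on either side of its start. Summits fall into the gray band in both replicates at 5 genes, whereas the first *ESRRG* summit lies 47.8 kb downstream.

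The lists were described first as far as they touch these genes. The libraries held 12235754 tags in replicate 1, 7418533 in replicate 2 and 21695224 in input DNA, as estimated from the deposited lists. The narrowPeak lists, which are in the format of the MACS peak caller, gave each peak a fold enrichment over the local background. The BED lists gave each peak of fixed width, 208 bp or 212 bp, its number of tags, from which a tag density was computed as tags per 10000000 tags of the library. A replicate here is 1 library with a single value, and intervals are 95% exact Poisson intervals that cover counting error only. No test between groups was possible, because the design had a single ChIP group.

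Across the 6 genes, replicate 1 had 73 peaks and replicate 2 had 58. Of the 81 merged regions, 48 (59.3%) had a peak in both replicates and are called shared. The share over all 117702 regions was 59.8%, so agreement between the replicates at these genes was close to that of the whole lists. A further 25 regions were found in replicate 1 only and 8 in replicate 2 only, by the narrowPeak lists. Replicate 1 had more peaks in the whole lists as well, 109205 compared with 81300. The same split over all regions was not analysed here. In shared regions the summits of the replicates were a median of 28 bp apart, and 45 of the 48 pairs were within 100 bp. Shared regions are defined by overlapping peaks, so close summits are partly set by the definition. The distance over all shared regions was not analysed here. Regions found in 1 replicate had a median fold enrichment of 5.88 (highest 10.7) in replicate 1 and 4.65 (highest 7.06) in replicate 2, compared with medians of 8.46 and 7.67 in shared regions. Over the whole lists these medians were 5.35 and 5.04 for regions of 1 replicate and 10.1 and 7.99 for shared regions, so the same order held there. The fold was higher in replicate 1 than in replicate 2 in 35 of the 48 shared regions (72.9%), and in 72.6% of all shared regions of the lists.

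**Figure D2:**
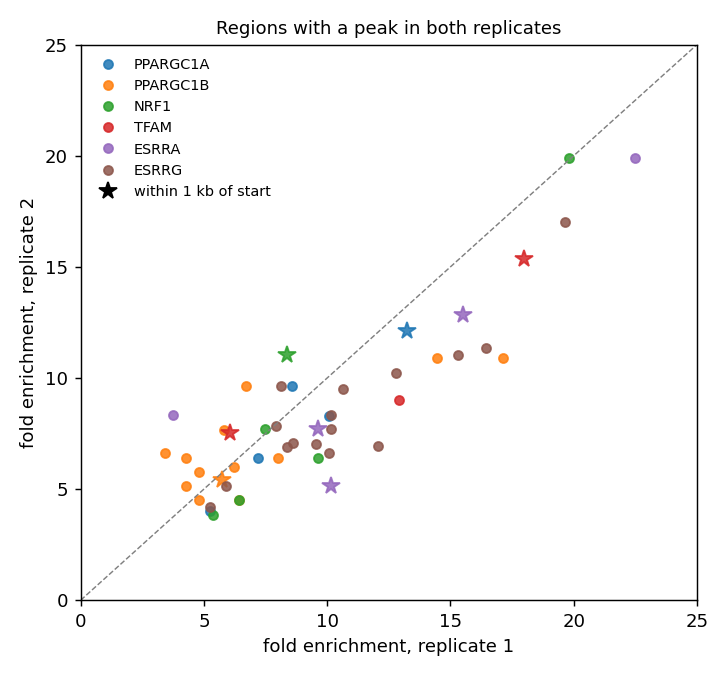
Fold enrichment of the 48 shared regions in replicate 1 (horizontal axis) and replicate 2 (vertical axis). Each point is a region, colored by gene, stars mark regions within 1 kb of a gene start, and the dashed line marks equal values. Most points, 35 of 48, lie below the line, and the points at the upper right, near 20-fold in both replicates, belong to *NRF1* and *ESRRA*.

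The density of peaks differed between *ESRRG* and the other genes. *ESRRG*, by far the longest at 635 kb, had 24 peaks in replicate 1 and 16 in replicate 2, or 36.7 and 24.4 peaks per Mb of its window. Chromosome 1 as a whole had 46.8 and 35.2 peaks per Mb. The other 5 genes together had 99.3 and 85.1 peaks per Mb, compared with 35.3 and 26.3 over the whole lists. Each of the 5 was denser than its own chromosome in both replicates, from *NRF1* (60.5 and 42.3 peaks per Mb, compared with 36.5 and 26.8 for chromosome 7) to *ESRRA* (224.6 and 288.7, compared with 29.3 and 22.6 for chromosome 11). The windows of *ESRRA* and *TFAM* were only 31.2 kb and 34.1 kb long, so their densities rest on 3 to 9 peaks in a replicate. With the BED lists, the 9 *ESRRA* peaks of replicate 2 fell to 4. The *ESRRA* window also takes in neighboring genes, which are named below. The surroundings of the start also make up more of a short window than of a long one, and the part of gene length in these densities was not tested.

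**Figure D3:**
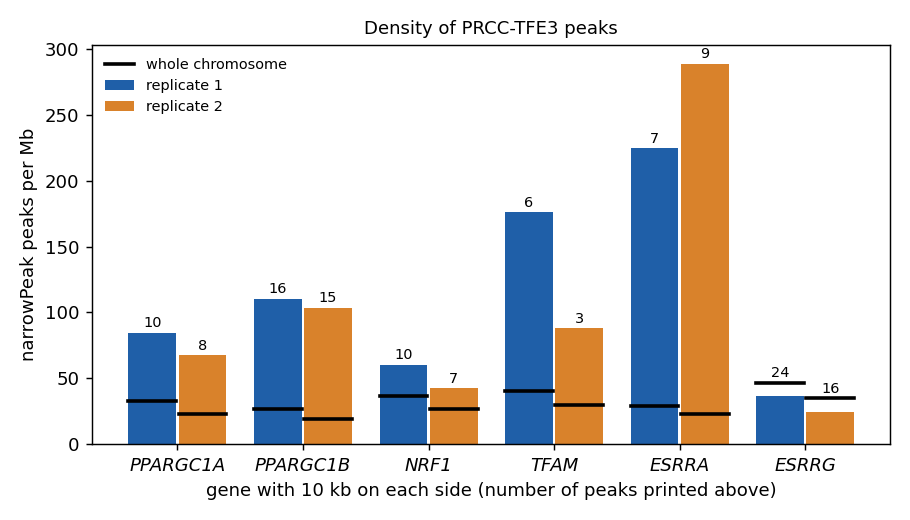
Number of narrowPeak peaks per Mb in each gene with 10 kb on each side (bars, blue for replicate 1 and orange for replicate 2) and on the whole chromosome of that gene (black lines), with the number of peaks printed above. The bars exceed the lines at 5 genes and stay below them at *ESRRG*, at 36.7 and 24.4 peaks per Mb.

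Among the downstream factors, *TFAM* (chromosome 10, 60144903 to 60158990, plus strand) had the strongest peak at a start. The region chr10:60144748-60145394 spanned the start, with summits 134 bp downstream in replicate 1 and 162 bp downstream in replicate 2. Its fold enrichments were 18.0 in replicate 1 and 15.4 in replicate 2, above 90.2% and 87.6% of the peaks in the respective lists. The BED peak held 44 tags in replicate 1, a density of 36.0 (26.1 to 48.3), and 27 tags in replicate 2, a density of 36.4 (24.0 to 53.0). No input tag was counted there, and 3 input tags, taken as the limit for a count of 0, would be a density of 1.38. Against this limit the measured ChIP level was at least 26.0-fold higher than input in replicate 1 and at least 26.3-fold higher in replicate 2, without the counting error of the ChIP tags themselves. The peak was called against this same input, so an excess over input was set by the calling and is no separate result. These ratios use another background than the fold enrichments above and are not comparable with them. After scaling for depth, the replicates differed by less than their counting intervals.

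The *TFAM* start carried a further, weaker region at chr10:60145548-60145840, about 0.8 kb downstream, with fold enrichments of 6.08 and 7.52. Its BED peaks held 15 and 14 tags, and 2 input tags. Another shared region, chr10:60159224-60159518, lay just past the end of the gene, 14.5 kb from the start, with fold enrichments of 12.9 and 9.02. The remaining 3 *TFAM* regions had a narrowPeak peak in replicate 1 only. No region lay upstream of the start window, and the RefSeq table (GRCh38.p14) has no other gene within 10 kb of *TFAM*.

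*ESRRA* (chromosome 11, 64073044 to 64084212, plus strand) had 3 shared regions at its start by the narrowPeak lists, more than any other of the 6 genes. The strongest, chr11:64072536-64073050, had summits 360 bp and 289 bp upstream of the start. The fold was 15.5 in replicate 1 and 12.8 in replicate 2. It held 27 tags in replicate 1, a density of 22.1 (14.5 to 32.1), and 21 tags in replicate 2, a density of 28.3 (17.5 to 43.3), with 0 input tags. The regions on either side of it were weaker, and neither had a BED peak in replicate 2. By contrast, each *TFAM* region at the start had a BED peak in both replicates, so the ranking of *ESRRA* does not hold by the BED lists. That at chr11:64071809-64072405, with summits 1.09 kb and 1.03 kb upstream, reached into the 1 kb window with its edge and had fold enrichments of 9.63 and 7.70. The one downstream, chr11:64073432-64073952, had fold enrichments of 10.2 and 5.13, and its summits were 550 bp and 660 bp from the start.

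The strongest region of the *ESRRA* window, and by the lower of both fold enrichments the strongest of all 48 shared regions, was not at its start. It lay at chr11:64084935-64086183, 12.1 kb downstream of the start and just beyond the gene, with fold enrichments of 22.5 and 19.9. The BED peak held 44 and 30 tags, at densities of 36.0 (26.1 to 48.3) and 40.4 (27.3 to 57.7), and 0 input tags. By the RefSeq table, *TRMT112* and *PRDX5* neighbor *ESRRA* on this side. The table also lists *KCNK4*, *KCNK4-CATSPERZ*, *CATSPERZ* and *LOC102723878* within 10 kb of *ESRRA*, where 4 regions lay upstream of the start window. PRDX5 is a peroxiredoxin found in mitochondria and peroxisomes, and TRMT112 is a cofactor of methyltransferases. Peaks in the *ESRRA* window cannot be assigned to *ESRRA* rather than to any of these neighbors from the lists alone.

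The promoter sequences of genes with and without a peak at the start are shown for comparison. RefSeq promoters (GRCh38.p14, 250 bases before to 50 after a start) were found for 5 of the 6 genes, all but *NRF1*. The starts listed for *PPARGC1A* and *PPARGC1B* lay several kb or more from the starts used for the peaks, as judged by their distance to the end of the gene, and are not printed. For *TFAM*, *ESRRA* and the first *ESRRG* start, that distance differed by 277, 51 and 53 bases between the annotations. The promoters are given 5′ to 3′ with the motifs found in capitals, and no base was moved between builds, so the windows and the hg19 peaks are not placed on each other.
*TFAM*, chr10:58385160-58385459, plus strand: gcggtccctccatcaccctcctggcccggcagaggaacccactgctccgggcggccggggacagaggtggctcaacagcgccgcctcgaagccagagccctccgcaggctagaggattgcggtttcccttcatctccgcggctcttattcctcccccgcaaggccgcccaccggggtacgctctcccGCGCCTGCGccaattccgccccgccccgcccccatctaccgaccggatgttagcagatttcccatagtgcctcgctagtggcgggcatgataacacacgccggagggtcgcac
*ESRRA*, chr11:64305274-64305573, plus strand: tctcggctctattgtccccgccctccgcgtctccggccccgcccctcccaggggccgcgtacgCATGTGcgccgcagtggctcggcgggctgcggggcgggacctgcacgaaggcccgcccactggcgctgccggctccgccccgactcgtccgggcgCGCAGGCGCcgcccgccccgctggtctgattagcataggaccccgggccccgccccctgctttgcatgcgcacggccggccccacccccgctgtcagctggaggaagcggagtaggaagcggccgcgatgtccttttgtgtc
*ESRRG*, first start, chr1:217137653-217137952, minus strand: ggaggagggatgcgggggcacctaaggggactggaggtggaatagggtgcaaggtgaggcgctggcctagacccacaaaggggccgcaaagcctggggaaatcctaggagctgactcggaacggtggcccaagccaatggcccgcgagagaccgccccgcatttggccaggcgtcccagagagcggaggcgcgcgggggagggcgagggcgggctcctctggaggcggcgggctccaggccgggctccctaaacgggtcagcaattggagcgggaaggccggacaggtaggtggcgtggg

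A total of 5 motifs were searched on both strands, and none of the matches overlap. The E-box CACGTG, the preferred site of TFE3 and its relatives, was in none of the 3 windows, and it was in 7.26% of the 35116 RefSeq promoters. The related core CATGTG was in the *ESRRA* window, from 187 bases before the start, and in 11.1% of all promoters. Of the *PPARGC1A* windows that are not printed, the first held CACGTG from 123 bases before its start. The second held CATGTG from 129 bases before its start. A motif of nuclear respiratory factor 1, GCGCNTGCG, was in the *TFAM* window from 63 bases before the start and in the *ESRRA* window from 92 bases before it. It was in 7.47% of all promoters. The ERR motif TCAAGGTCA (0.353% of all promoters) and the AP-1 motif TGANTCA (7.71%) were in none of the 3. The *ESRRG* window held none of the 5 motifs. These matches describe windows of 300 bases and not the whole peaks.

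The coactivator genes came next. *PPARGC1A* (chromosome 4, 23793644 to 23891700, minus strand) had 10 peaks in replicate 1 and 8 in replicate 2, which merged into 13 regions, 5 of them shared. At its start, chr4:23891385-23891944 had summits 86 bp and 55 bp upstream and fold enrichments of 13.3 (replicate 1) and 12.1 (replicate 2). It held 25 tags in replicate 1, a density of 20.4 (13.2 to 30.2), and 18 tags in replicate 2, a density of 24.3 (14.4 to 38.3), with 0 input tags. This was the strongest *PPARGC1A* region in both replicates. Each replicate had 1 further, unshared region within 1 kb, chr4:23892140-23892515 in replicate 1 (fold enrichment 4.09) and chr4:23890772-23890994 in replicate 2 (6.42). Apart from the start, the highest values in both replicates were at 84.4 kb, with fold enrichments of 10.1 and 8.28, and past the end of the gene at 100.1 kb (chr4:23791435-23791758), with 8.56 and 9.63.

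*PPARGC1B* (chromosome 5, 149109864 to 149234585, plus strand) showed the reverse order, with a weak peak at its start and stronger ones far downstream. The region at the start, chr5:149109541-149109944, had summits 31 bp downstream in replicate 1 and 48 bp upstream in replicate 2, and fold enrichments of 5.75 and 5.41. These exceeded only 28.2% and 22.6% of the peaks in the lists. It held 11 tags in replicate 1, a density of 8.99 (4.49 to 16.1), and 8 tags in replicate 2, a density of 10.8 (4.66 to 21.2). The counts of input tags at these BED peaks were 0 and 1. In both replicates the intervals of *PPARGC1B* lay below those of *TFAM* and did not overlap them.

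Within the *PPARGC1B* gene, the strongest region was chr5:149178696-149179121, 69.0 kb downstream of the start, with fold enrichments of 17.1 and 10.9. It held 31 and 16 tags, at densities of 25.3 (17.2 to 36.0) and 21.6 (12.3 to 35.0), and 0 input tags. Beyond the end of the gene, at 127.4 kb and 127.5 kb, chr5:149237160-149237477 had fold enrichments of 14.4 and 10.9. Of the 18 *PPARGC1B* regions, 13 (72.2%) were shared, compared with 59.8% of all regions. This was the highest share among the 6 genes, a ranking that rests on only 6 to 24 regions per gene. Of the 13 shared regions, 7 had a BED peak in both replicates, compared with 34 of the 48 shared regions over the 6 genes. A shared *PPARGC1B* region lay 2.4 kb downstream of the start, with fold enrichments of 6.22 and 6.01. The RefSeq table has the microRNA gene *MIR378A* inside *PPARGC1B* and *PDE6A* next to it.

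*NRF1* (chromosome 7, 129251555 to 129396922, plus strand) had a moderate peak at its start and a strong one inside the gene. The region chr7:129251404-129251809 had summits 54 bp and 75 bp downstream of the start and fold enrichments of 8.36 (replicate 1) and 11.0 (replicate 2). It held 24 tags in replicate 1, a density of 19.6 (12.6 to 29.2), and 21 tags in replicate 2, a density of 28.3 (17.5 to 43.3), with 0 input tags. In contrast to the other starts, apart from the weaker *TFAM* region, its fold was higher in replicate 2. A region 1.14 kb downstream, chr7:129252547-129252873, overlapped the 1 kb window and was found in replicate 1 only, with a fold enrichment of 6.36.

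The *NRF1* gene held one of the strongest regions of the set at chr7:129304864-129305273, 53.5 kb downstream of the start. Its fold enrichments were 19.8 in replicate 1 and 19.9 in replicate 2, above 92.6% and 94.4% of the peaks in the lists. The BED peak held 38 and 30 tags, at densities of 31.1 (22.0 to 42.6) and 40.4 (27.3 to 57.7), and 0 input tags. It was accompanied at 52.8 kb and 52.9 kb by a weaker shared region with fold enrichments of 9.63 and 6.42. Whether this site falls in an exon or an intron was not analysed here.

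Ordered by tag density at the start, *TFAM* came first in both replicates (36.0 and 36.4) and *PPARGC1B* last (8.99 and 10.8). *ESRRA*, *PPARGC1A* and *NRF1* lay between them, from 19.6 to 22.1 in replicate 1 and from 24.3 to 28.3 in replicate 2. These 3 had overlapping intervals and changed their order between the replicates, so they cannot be ranked at this depth. Their intervals also overlapped that of *TFAM*. By fold enrichment, *TFAM* was again first in each replicate, followed by *ESRRA* and *PPARGC1A*, but its value of 15.4 in replicate 2 was below the 15.5 of *ESRRA* in replicate 1. The mean number of input tags at BED peaks also differed between the chromosomes of these genes. It was 1.12 for chromosome 10 (*TFAM*), 0.894 for chromosome 7 (*NRF1*), 0.867 for chromosome 4 (*PPARGC1A*), 0.632 for chromosome 5 (*PPARGC1B*) and 0.557 for chromosome 11 (*ESRRA*). Its part in the order of the starts was not tested.

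**Figure D4:**
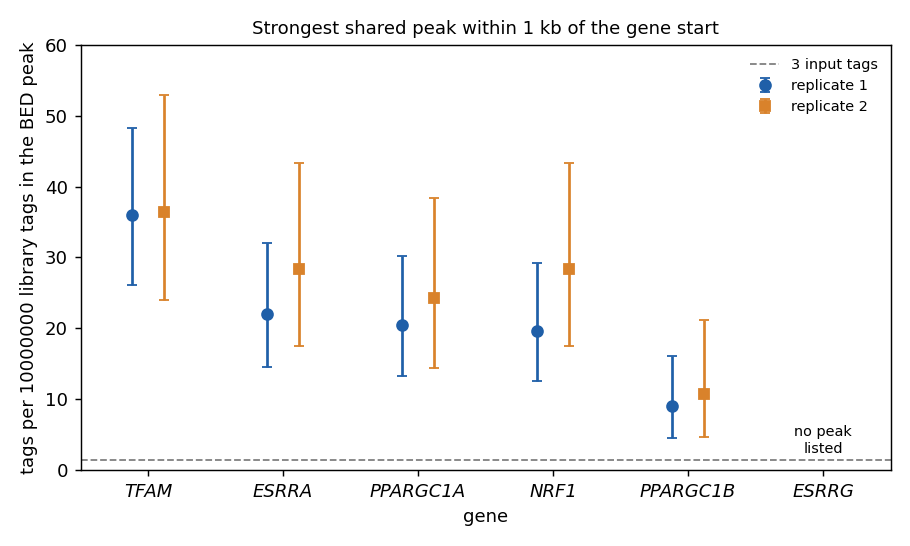
Tag density (tags per 10000000 library tags) in the BED peak of the strongest shared region within 1 kb of each gene start, with 95% exact Poisson intervals, for replicate 1 (blue circles) and replicate 2 (orange squares). The dashed line is the level of 3 input tags, a density of 1.38. *TFAM* is highest at 36.0 and 36.4, *PPARGC1B* is lowest at 8.99 and 10.8, and *ESRRG* has no peak listed.

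*ESRRG* (chromosome 1, 216676588 to 217311097, minus strand) was the one gene of the 6 with no region at its start. Of its 24 regions, 23 were in the gene body, 1 lay past its end, and 0 lay upstream or within 1 kb of the start. The gene itself makes up 634.5 kb of its 654.5 kb window. All 16 narrowPeak peaks of replicate 2 were in shared regions, whereas 8 regions had a narrowPeak peak in replicate 1 only. Replicate 1 had more peaks over the whole lists as well. The region closest to the start, chr1:217263084-217263517, was 47.8 kb downstream in both replicates, with fold enrichments of 10.1 and 6.62 and with 22 and 11 tags. Absence from the lists is limited by depth, and a weaker peak at the *ESRRG* start may not have been listed.

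The strongest *ESRRG* regions were deep in the gene. The region chr1:216986300-216986687, 324.6 kb downstream of the start, had fold enrichments of 19.6 (replicate 1) and 17.0 (replicate 2). It held 41 and 26 tags, at densities of 33.5 (24.0 to 45.5) and 35.0 (22.9 to 51.4), and 1 input tag. These levels were close to those at the *TFAM* start. The region chr1:217103255-217103770, at 207.6 kb and 207.7 kb, followed with fold enrichments of 16.4 and 11.3 and with 2 input tags. A further shared pair was 108.4 kb and 111.1 kb downstream, with fold enrichments of 15.3 and 12.8 in replicate 1 and of 11.0 and 10.2 in replicate 2.

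*ESRRG* is known to be transcribed from several starts, and the RefSeq promoter table lists 8 of them in GRCh38.p14. They lay 47.1, 47.9, 48.1, 59.4, 60.7, 332.3 and 414.3 kb downstream of the first. In hg19, PRCC-TFE3 regions were found 47.8 kb downstream of the start in both replicates. In the narrowPeak list of replicate 1 alone, they were also found at 59.2 kb and 60.6 kb, with fold enrichments of 8.44 and 7.98. The region at 60.6 kb, chr1:217250310-217250641, had a BED peak in replicate 2 as well, with 7 tags, a density of 9.44 (3.79 to 19.4), and 1 input tag. These distances are given side by side, each within its own build, and whether the peaks overlap these starts was not tested. No region was as close in distance to the starts at 332.3 kb and 414.3 kb, where the nearest were at 324.6 kb and 394.9 kb. The windows at the starts nearest in distance to the regions at 47.8, 59.2 and 60.6 kb are shown with the motif found in capitals.
*ESRRG*, start at 47.9 kb, chr1:217089775-217090074, minus strand: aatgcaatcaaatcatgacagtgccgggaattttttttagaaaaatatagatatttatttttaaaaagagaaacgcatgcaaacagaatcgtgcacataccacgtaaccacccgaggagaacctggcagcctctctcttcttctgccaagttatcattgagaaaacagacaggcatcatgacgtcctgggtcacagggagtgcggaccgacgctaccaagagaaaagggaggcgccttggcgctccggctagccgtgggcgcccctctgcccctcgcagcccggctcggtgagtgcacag
*ESRRG*, start at 59.4 kb, chr1:217078238-217078537, minus strand: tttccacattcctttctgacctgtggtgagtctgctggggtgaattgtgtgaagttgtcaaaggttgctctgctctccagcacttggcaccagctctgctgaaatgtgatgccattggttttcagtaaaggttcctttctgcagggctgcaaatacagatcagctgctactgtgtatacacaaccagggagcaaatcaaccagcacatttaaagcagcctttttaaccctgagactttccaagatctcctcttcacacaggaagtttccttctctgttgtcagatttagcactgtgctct
*ESRRG*, start at 60.7 kb, chr1:217076943-217077242, minus strand: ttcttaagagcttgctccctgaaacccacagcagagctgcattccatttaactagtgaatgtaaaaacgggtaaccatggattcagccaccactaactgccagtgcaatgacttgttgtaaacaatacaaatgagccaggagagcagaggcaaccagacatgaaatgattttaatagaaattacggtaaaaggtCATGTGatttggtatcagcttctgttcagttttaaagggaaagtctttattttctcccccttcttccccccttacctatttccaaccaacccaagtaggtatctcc

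The windows at 47.9 kb and 59.4 kb held none of the 5 motifs. That at 60.7 kb held the core CATGTG, from 56 bases before the start, which was also in 11.1% of all promoters. The window of the start at 332.3 kb, which is not printed, held this core too, from 175 bases before the start.

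The split of tags between the replicates was then compared at the 34 shared regions that had a BED peak in both. They held 767 tags in replicate 1 and 513 in replicate 2, so replicate 2 contributed 40.1% (95% exact binomial interval, 37.4% to 42.8%). Over all 55655 regions with a BED peak in both replicates this share was 39.8%, and replicate 2 had 37.7% of the tags of both libraries. The sets are not defined alike. The 34 were shared by the narrowPeak lists and counted the strongest BED peak of each replicate. The 55655 were overlaps of BED peaks, with all peaks summed. Both sets leave out regions without a BED peak in replicate 2, the shallower library. By gene the share ranged from 37.9% at *ESRRG* (33.8% to 42.2%) to 43.3% at *NRF1* (35.6% to 51.2%), and these intervals overlapped. The interval over the 6 genes included both the share of the whole lists and that of the libraries. BED peaks at the 6 genes held 40 input tags against 1093 ChIP tags in replicate 1 and 30 against 593 in replicate 2. These counts are not scaled for depth. Peaks were called against input, so an excess of ChIP tags was set by the calling and is no separate result. Over the whole BED lists, a peak held a mean of 0.874 input tags in replicate 1 and 0.876 in replicate 2.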

How the data were processed

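ChIP-seq peak lists of 2 HA-PRCC-TFE3 replicates and 1 input DNA library were used, and samples were grouped by their titles. Per the submitters' processing notes the build was hg19, and on 15 of 24 chromosomes the last peak ended beyond the hg38 sequence. The methods name MACS in Strand NGS with input DNA as control, and the aligner is not given in the sources used here. They also state a stringent p-value threshold for binding sites. The narrowPeak lists reach q = 0.05, so they may hold peaks that the study did not count as binding sites. Peaks were called per sample. In the narrowPeak lists the authors deposited a fold enrichment ratio, −log10 p and q values down to q = 0.05, a score and the summit of each peak. Their BED lists hold, by position because the header names are displaced, a deposited score, a signal in tags per 10000000 tags, counts of tags, scaled input signal, fold ratios and p-values, and a focus fraction and clonal fold ratio that were not used.

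Peaks were assigned to the 6 genes by the hg19 intervals given for them, with a flank of 10 kb, and merged at 1 bp of overlap (Python 3.11.15, pandas 2.3.3, SciPy 1.17.1). A promoter was the strand-wise start with 1 kb on each side. Named regions were all those in promoters and, for each gene, the 2 shared regions that ranked highest by the smaller of their fold enrichments, and further regions were chosen after their values were seen. Density used the end of the last peak as the length of a chromosome. Library totals were the tag counts divided by the scaled signal. Input tags were recovered from tag counts and fold over input, and 100% and 99.997% of values came out whole within 0.05 tags. Overlap and recovery were checked on simulated data. Other peak lists, cutoffs, overlaps, flanks and promoter widths were tried. The genes, motifs and settings were chosen with earlier results of these data known. A planned list of further pathway genes was not analysed here, since it needs an annotation in hg19. RefSeq sequences (GRCh38.p14) were matched by symbol. The study calls the replicates biological, without further detail.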

Additional observations from a re-analysis of the deposited data

How the results depend on the processing

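Of 26 alternative values of the counts over the 6 genes, 22 stayed within a factor of 1.5. The 5 genes with a peak at the start in both replicates were the same 5 with the BED lists and with −log10 q of at least 5. The same held with equal numbers of peaks and with promoters of 500 bp on each side. Promoters of 2 kb on each side and leaving out either replicate gave 5 as well. These last settings only relax the rule and could not give fewer than 5, yet they are counted among the 22. With −log10 p of at least 10 there were 4, without *PPARGC1B*. That cutoff moved the merged regions from 81 to 43 and the shared regions from 48 to 28, since fewer peaks enter. A flank of 50 kb gave 130 and 78, since the windows are longer. Leaving out a replicate gave 58 to 73 merged regions, and other settings gave 35 to 45 shared regions. Input DNA had 0 peaks with flanks of 10 kb and 50 kb and in the gene bodies alone, which says little with 286 peaks in its list. Of 24 alternative values of peaks per gene, 3 moved, all in replicate 2: *ESRRA* from 9 to 4 with the BED lists, and *PPARGC1A* from 8 to 4 with the BED lists and to 5 with −log10 q of at least 5. No paired analysis was possible because only ChIP samples are numbered and they form a single group. With 7418533 tags in replicate 2, a peak missing from its list cannot be taken as absent.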
